A study of Mus musculus with 24 samples.

Results

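Tubulin genes code for the subunits of microtubules, and 10 of them were followed here, out of 23787 genes with a symbol on the array: the alpha-tubulin genes Tuba1a, Tuba1b and Tuba1c, the beta-tubulin genes Tubb2a, Tubb2b, Tubb3, Tubb4b, Tubb5 and Tubb6, and the gamma-tubulin gene Tubg1. They were chosen by name, and a probe was counted as theirs when its RefSeq transcript mapped to the symbol. All 10 genes were on the array, through 14 probes, and each of these probes was well above background on all 24 arrays. Where a gene has several probes they are numbered from the highest mean. On the mouse build GRCm38.p6 the alpha-tubulin genes lie close together, Tuba1b at chr15:98931429-98934390, Tuba1a at chr15:98949847-98953501 and Tuba1c at chr15:99029891-99038105. Tubb2a lies at chr13:34074278-34078008 and Tubb2b at chr13:34127008-34130354. Tubb3 lies at chr8:123411553-123422015, Tubb4b at chr2:25222158-25224702, Tubb5 at chr17:35833920-35838301 and Tubg1 at chr11:101119904-101126423.

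The cells were TM3, an established mouse Leydig cell line. Every culture was put in suspension, aliquoted into electroporation cuvettes and either exposed to a nanosecond pulsed electric field (nsPEF) of 80 pulses, each 60 ns wide, at 14 kV/cm over 180 s, or sham-exposed. Cells were harvested at 0, 4 and 24 h, with 4 arrays in each of the 6 groups (sham at 0, 4 and 24 h, and nsPEF at 0, 4 and 24 h). All groups came from this single cell line, so they stand for TM3 cells and not for Leydig cells of the testis. Of 10 Leydig cell markers on the array, 5 (Star, Cyp17a1, Nr5a1, Nr2f2 and Gata4) were well above background on all 24 arrays, whereas Lhcgr, Cyp11a1, Hsd3b6 and Hsd17b3 were so on 0 arrays and Hsd3b1 on 1. Of 13 markers of other testis cells and of neurons, 5 (Acta2, Sox9, Cd68, Snap25 and Syp) were well above background on all 24 arrays.

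Microtubules are hollow polymers of alpha- and beta-tubulin dimers that grow and shrink from their ends, carry cargo, shape the cell and form the mitotic spindle. Mammalian cells hold several alpha- and beta-tubulin genes whose proteins are very alike and mix within a polymer. Gamma-tubulin is not part of the polymer but sits in a ring complex from which new microtubules start. Free tubulin dimers also lower the stability of tubulin mRNAs while these are being translated, a feedback known as autoregulation. In steroid-producing cells, microtubules take part in moving cholesterol and organelles.

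Each value below is the log2 of the array's processed signal for a probe minus the log2 of the 75th percentile of that array, so it is a level relative to the array's own upper quartile. A difference of 1 is therefore a change of 2-fold. Levels of different probes were not compared, because probes bind with different strength. These are bulk samples, in which fewer cells of a type and less RNA per cell cannot be told apart. Differences were tested with limma over 37687 probes, and "called" means a Benjamini-Hochberg adjusted p under 0.05. The labels call the 4 arrays of a group replicates, and the methods describe them as biological replicates. Each time point had a slide of its own, and the effects of time and of slide therefore cannot be told apart. On each slide the sham arrays lay in one row and the nsPEF arrays in the other, so treatment and place on the slide cannot be told apart either.

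The library labelled sham 4 h replicate 4 stood apart from the rest of its group. Its 75th percentile was 533 intensity units, against 299 to 311 in the other 3 sham arrays of that time. A pair of bright tubulin probes did not scale with it: the intensity on that array was 1.12 times the mean of the other 3 for the first Tuba1b probe and 1.04 times for the first Tuba1c probe, against 1.75 times for the 75th percentile. For the other 12 tubulin probes the ratio lay between 1.43 and 1.68. Over all 24 arrays the first Tuba1b probe read between 111797 and 152276 intensity units, a span of 1.36-fold, while the 75th percentile spanned 2.64-fold. No spot was marked as saturated. Values without this array are given beside several of the results that it moved.

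**Figure D1:**
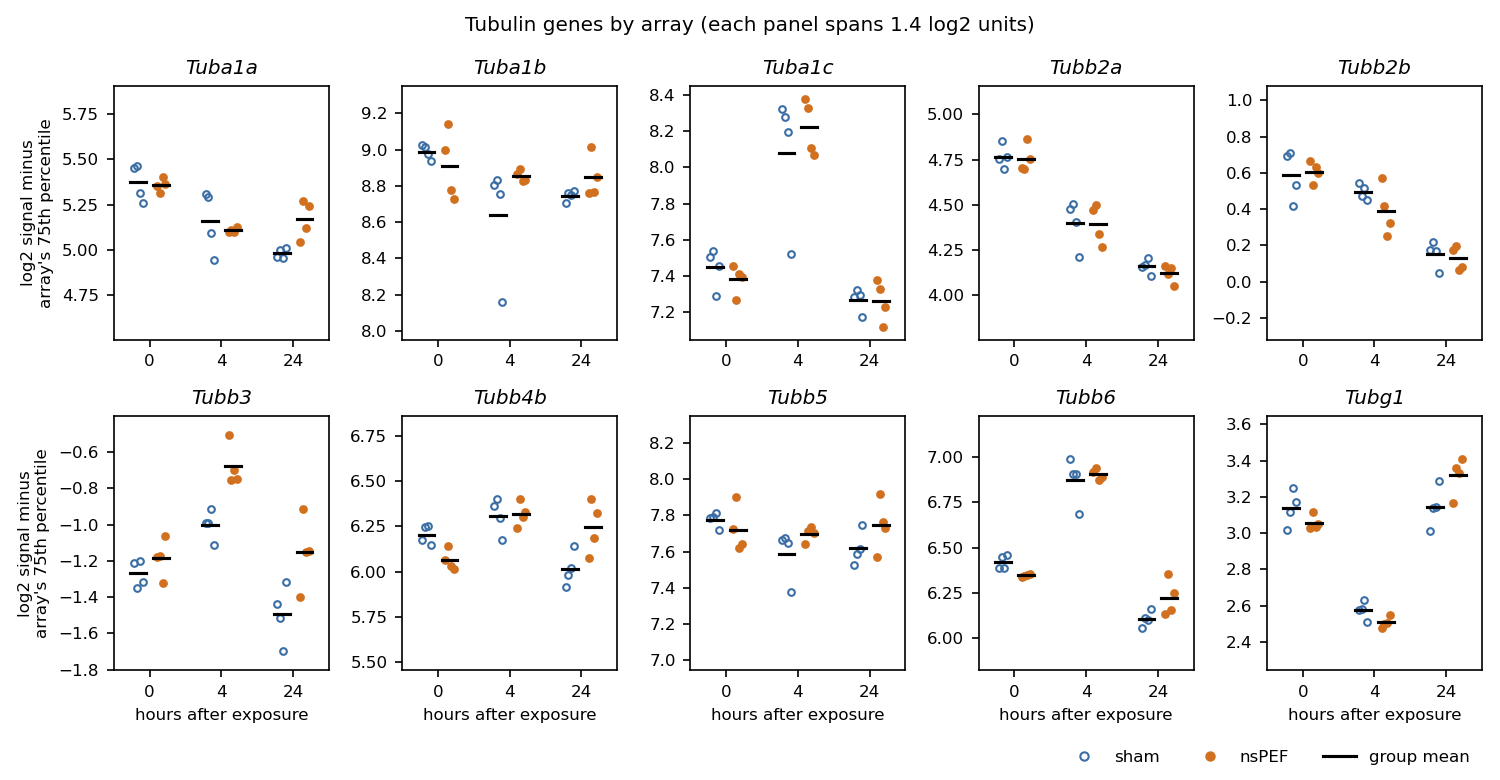
Values of the 10 tubulin genes on each array, by the probe with the highest mean. The x axis gives hours after exposure, the y axis the log2 signal minus the array's 75th percentile, open circles sham, filled circles nsPEF and bars the group means. Every panel spans the same height on the log2 scale, so a steep panel is a large change. Tuba1c, Tubb6 and Tubg1 moved most at 4 h, and 1 sham array at 4 h lies far below the others for Tuba1b, Tuba1c and Tubb5.

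More of the tubulin genes were called between the time points than between nsPEF and sham, and the same held for all tested probes. Between 0 and 4 h in sham-exposed cells Tuba1c and Tubb6 rose and Tubg1 and Tubb2a fell. Tubb3 was also called higher and Tuba1a, Tuba1b and Tubb5 lower, but those calls depended on single arrays, on the probe or on the normalization. By the probe with the highest mean for each gene, 3 of 10 genes were called higher and 5 lower. Over all tested probes 29.4% were called higher and 29.7% lower in the same comparison, and 69.6% of the probes that were above background throughout were called in either direction. The count of members called was therefore close to that background. Without the arrays of replicate number 3 the count was 5 of 10. The median difference of the 10 genes was -0.14, or -0.10 without sham replicate 4 of 4 h, against -0.01 over all tested probes.

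Promoters of 4 members are shown because these genes moved in opposite directions at 4 h, Tuba1c and Tubb3 upward and Tuba1a and Tubb2a downward. Each line holds the 120 bases just before the annotated start, on the gene's strand, from RefSeq and the build GRCm38.p6. Capitals mark the letters CCAAT or GGGCGG or TATAAA, read on either strand. The stretches lie at chr15:99029771-99029890 (plus strand) for Tuba1c, chr8:123411433-123411552 (plus strand) for Tubb3, chr15:98953502-98953621 (minus strand) for Tuba1a and chr13:34078009-34078128 (minus strand) for Tubb2a.
Tuba1c: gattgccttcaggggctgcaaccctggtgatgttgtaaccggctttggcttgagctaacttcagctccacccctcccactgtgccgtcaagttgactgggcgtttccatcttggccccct
Tubb3: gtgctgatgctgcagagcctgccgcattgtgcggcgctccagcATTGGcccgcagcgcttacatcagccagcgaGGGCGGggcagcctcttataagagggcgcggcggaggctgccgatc
Tuba1a: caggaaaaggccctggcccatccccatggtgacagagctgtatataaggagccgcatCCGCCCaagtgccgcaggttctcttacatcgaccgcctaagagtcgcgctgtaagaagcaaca
Tubb2a: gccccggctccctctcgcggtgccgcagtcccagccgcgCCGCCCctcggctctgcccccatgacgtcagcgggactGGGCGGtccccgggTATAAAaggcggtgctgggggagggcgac

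The Tuba1c stretch holds none of these letters, and its only match in the 250 bases before the start is CCAAT on the opposite strand, 151 bases upstream. Tubb3 holds CCAAT on the opposite strand at 77 bases and GGGCGG at 46 and 138 bases. Tubb2a holds TATAAA at 29 bases and GGGCGG at 43 bases and, on the opposite strand, at 81 bases. Tuba1a holds GGGCGG on the opposite strand at 63 bases and CCAAT at 176 bases. Of the 7 members whose promoters were searched, 5 hold CCAAT, 5 hold GGGCGG and 1 holds TATAAA within 250 bases. Tubb2b, Tubb6 and Tubg1 are not in this count. Over all 32851 promoters of the RefSeq set the shares were 33.8%, 32.7% and 12.4%. A match is a description of these letters and not a site.

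Tuba1c, 1 of the alpha-tubulin genes that most dividing cells express, had the widest range of group means of the 10 genes. In sham-exposed cells its first probe read 7.51, 7.54, 7.29 and 7.46 at 0 h, then 8.32, 8.28, 8.19 and 7.52 at 4 h, then 7.28, 7.32, 7.30 and 7.17 at 24 h. In nsPEF-exposed cells it read 7.45, 7.27, 7.41 and 7.40 at 0 h, then 8.38, 8.33, 8.11 and 8.07 at 4 h, then 7.38, 7.33, 7.12 and 7.23 at 24 h. Of the 8 arrays at 4 h, 7 lay above every array of the other times, and the exception was the sham array that stood apart. The sham means were 7.45 ± 0.11 (SD, n = 4) at 0 h and 8.08 ± 0.38 (SD, n = 4) at 4 h, a rise of 0.63 (SE 0.13, limma adjusted p = 2.4e-04) or 1.55-fold. Without sham replicate 4 of 4 h the rise was 0.82 (adjusted p = 5.7e-08) or 1.76-fold. The rise in nsPEF-exposed cells was 0.84 (adjusted p = 9.0e-06) or 1.79-fold. From 4 to 24 h Tuba1c then fell by 0.81 in sham-exposed cells (adjusted p = 1.6e-05). The nsPEF-exposed cells fell by 0.96 (adjusted p = 2.0e-06), and neither group at 24 h differed from its 0 h group past the threshold.

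Tuba1c has 3 probes on the array, the first of them spotted 10 times, and all 3 were called higher at 4 h in both sham and nsPEF. They differed in size: in sham the others rose by 0.29 (adjusted p = 7.5e-04) and 0.24 (adjusted p = 0.0042), and their groups at 0 and 4 h did not overlap. At 24 h in nsPEF these probes stayed 0.27 and 0.21 above 0 h (adjusted p = 0.0023 and 0.015), whereas the first probe lay at -0.12 (adjusted p = 0.48). From 4 to 24 h in nsPEF the others differed by -0.14 and -0.13 (adjusted p = 0.082 and 0.092), so the fall was called by the first probe alone. In sham all 3 were called lower over that interval, the others with differences of -0.24 and -0.25. Which of them reads Tuba1c alone was not tested, since alpha-tubulin transcripts are close in sequence and the files hold no probe sequences.

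Tubb6, a beta-tubulin gene known from muscle and from many cultured cells, followed the same course with little spread. Its sham arrays read 6.38, 6.45, 6.39 and 6.46 at 0 h, 6.99, 6.90, 6.90 and 6.68 at 4 h, then 6.06, 6.11, 6.10 and 6.16 at 24 h, so the 3 groups did not overlap. The rise at 4 h was 0.45 (SE 0.06, adjusted p = 6.0e-07) or 1.37-fold in sham and 0.56 (adjusted p = 2.7e-08) or 1.47-fold in nsPEF. From 4 to 24 h sham cells fell by 0.76 and nsPEF cells fell by 0.68 (adjusted p = 3.2e-10 and 2.0e-09). At 24 h sham cells lay below 0 h by 0.31 (adjusted p = 1.8e-04), while the difference in nsPEF cells was -0.12 (95% interval -0.24 to -0.01, adjusted p = 0.084).

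Tubb4b, a beta-tubulin gene found in most tissues and in cilia, has 2 probes. The first read a sham mean of 6.20 ± 0.05 (SD, n = 4) at 0 h, 6.31 ± 0.10 (SD, n = 4) at 4 h and 6.01 ± 0.09 (SD, n = 4) at 24 h. Its difference between 0 and 4 h was 0.10 in sham (95% interval -0.04 to 0.24, adjusted p = 0.20) and 0.25 in nsPEF (adjusted p = 0.0030). By the second probe the rise was called in both sham, at 0.28 (adjusted p = 0.0016), and nsPEF, at 0.27 (adjusted p = 0.0019). At 24 h against 0 h the first probe was lower in sham by 0.19 (adjusted p = 0.033) and higher in nsPEF by 0.18 (adjusted p = 0.038). The second probe gave -0.05 and 0.17 there (adjusted p = 0.60 and 0.056). The call of the first probe in sham was lost under quantile normalization (-0.03, adjusted p = 0.65), normexp background correction (-0.13, adjusted p = 0.13) and without any 1 of 5 single arrays.

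Tubb3, the beta-tubulin best known from neurons, was measured by a dim probe, at 89.5 to 247 intensity units. Its sham arrays read -1.21, -1.35, -1.20 and -1.31 at 0 h, -0.99, -0.99, -0.91 and -1.11 at 4 h, then -1.43, -1.52, -1.70 and -1.32 at 24 h. The 4 h group lay above both others with no overlap. It rose by 0.27 from 0 to 4 h in sham (SE 0.09, adjusted p = 0.018) and by 0.51 in nsPEF (adjusted p = 8.0e-05). The sham call was lost with the percentile taken over probes detected on all arrays (0.15, adjusted p = 0.16), with normexp background correction (0.14, adjusted p = 0.11) and under spike-in scaling (0.18, adjusted p = 0.29). It was also lost without sham replicate 2 of 0 h (0.24, adjusted p = 0.051) or replicate 3 of 4 h (0.24, adjusted p = 0.053). From 4 to 24 h it fell by 0.49 in sham and fell by 0.47 in nsPEF (adjusted p = 1.3e-04 and 1.9e-04).

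Tubg1, the main gamma-tubulin gene, moved the other way. Sham arrays read 3.02, 3.12, 3.25 and 3.17 at 0 h, 2.58, 2.58, 2.63 and 2.51 at 4 h, then 3.01, 3.14, 3.14 and 3.29 at 24 h, so every array of 4 h lay below every array of the other times. The difference at 4 h was -0.56 (SE 0.06, adjusted p = 9.0e-08) in sham, a level 0.68 times that at 0 h, and nsPEF fell by 0.55 (adjusted p = 1.3e-07). It rose again by 0.57 in sham and by 0.81 in nsPEF from 4 to 24 h (adjusted p = 9.6e-08 and 5.5e-10). Sham cells at 24 h differed from 0 h by 0.01 (95% interval -0.12 to 0.13), while nsPEF cells lay 0.26 above 0 h (adjusted p = 0.0019).

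Tubb2a and Tubb2b, beta-tubulin genes that lie near each other on chromosome 13, were both lower at 24 h than at 0 h. Tubb2a in sham read 4.75, 4.85, 4.70 and 4.76 at 0 h, 4.48, 4.50, 4.41 and 4.21 at 4 h, then 4.16, 4.17, 4.21 and 4.11 at 24 h. The 0 h arrays lay above all others, and the 24 h arrays below all of 4 h. It fell by 0.37 from 0 to 4 h (adjusted p = 4.7e-05), and its difference between 0 and 24 h was -0.61 (SE 0.06, adjusted p = 3.3e-07). In nsPEF the differences were -0.36 and -0.63 (adjusted p = 5.9e-05 and 1.7e-07). Tubb2b differed by -0.09 between 0 and 4 h in sham (95% interval -0.24 to 0.05, adjusted p = 0.27), fell by 0.22 in nsPEF (adjusted p = 0.011), and at 24 h differed from 0 h by -0.44 in sham and -0.48 in nsPEF (adjusted p = 5.7e-05 and 1.8e-05).

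Tuba1a, the alpha-tubulin of developing neurons, fell by 0.21 from 0 to 4 h in sham (adjusted p = 0.013), and its groups overlapped. Without sham replicate 4 of 4 h that difference was -0.14 (adjusted p = 0.064). In nsPEF it fell by 0.25 (adjusted p = 0.0040). Between 0 and 24 h it differed by -0.39 in sham (adjusted p = 1.8e-04), where the 4 arrays read 4.96 to 5.01 against 5.26 to 5.46, and by -0.19 in nsPEF (adjusted p = 0.035).

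For Tuba1b, the alpha-tubulin gene of most cells, the 2 probes disagreed. In sham the first read 9.03, 9.01, 8.98 and 8.94 at 0 h, and 8.80, 8.83, 8.76 and 8.16 at 4 h, a difference of -0.35 (adjusted p = 0.012), or -0.19 without sham replicate 4 of 4 h (adjusted p = 0.044). The second probe differed by 0.06 (95% interval -0.07 to 0.19, adjusted p = 0.42) in sham, and in nsPEF it rose by 0.20 (adjusted p = 0.0078) where the first gave -0.06 (adjusted p = 0.69). The median difference in sham over the 82 tested probes whose mean level lay within 0.5 of that of the first Tuba1b probe was -0.34, beside its own -0.35, and -0.15 without that array. Under quantile normalization the first probe differed by -0.01 (adjusted p = 0.83). No direction can be given for Tuba1b at 4 h.

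**Figure D2:**
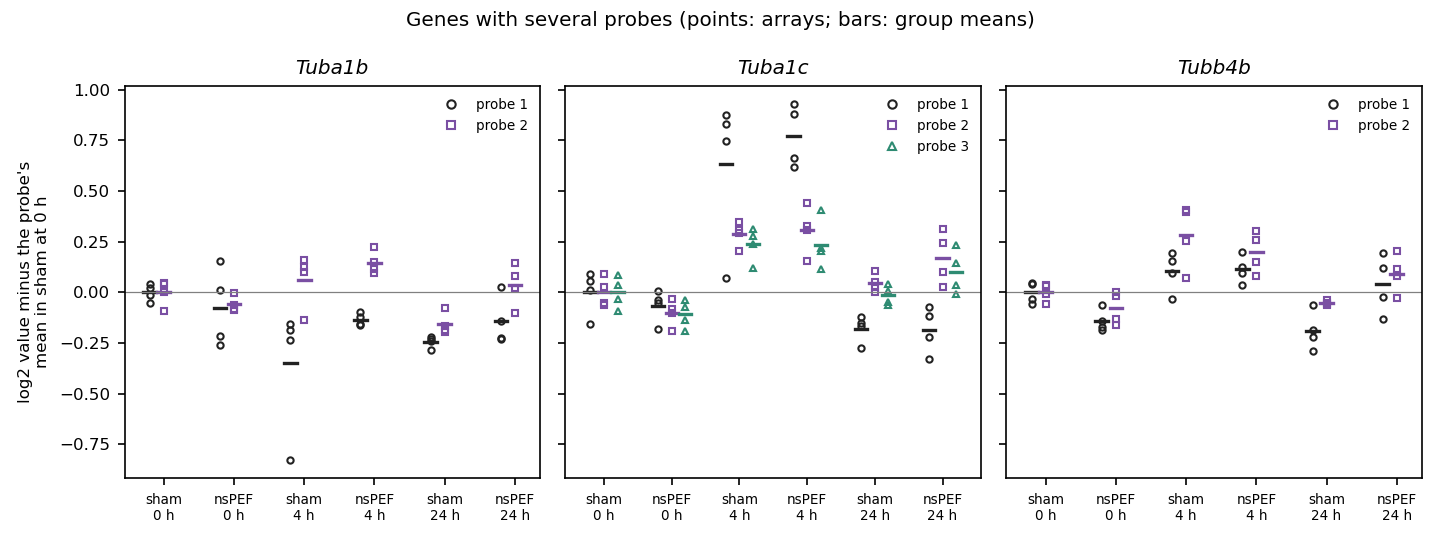
The 3 genes with several probes. The y axis gives each probe's log2 value minus its own mean in sham at 0 h, points are arrays and bars group means. The 3 Tuba1c probes all rise at 4 h, the first by 0.63 and the others by 0.29 and 0.24 in sham, while the Tuba1b probes differ by -0.35 and 0.06.

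Tubb5, the beta-tubulin gene of most dividing cells, matters for another reason: the methods name it, with B2m, as a reference gene of the study's quantitative PCR. The study states that both were chosen because their expression was stable across samples, and it normalized to their geometric mean. For Tubb5 the sham arrays read 7.78, 7.79, 7.81 and 7.72 at 0 h, 7.66, 7.67, 7.65 and 7.38 at 4 h, then 7.53, 7.59, 7.62 and 7.75 at 24 h. In nsPEF they read 7.73, 7.90, 7.62 and 7.64 at 0 h, 7.64, 7.71, 7.74 and 7.70 at 4 h, then 7.57, 7.92, 7.76 and 7.73 at 24 h. The nsPEF groups overlapped at all 3 times, and among the sham groups 4 h lay below 0 h with no overlap. In sham it differed by -0.19 between 0 and 4 h (SE 0.08, adjusted p = 0.044), and this call was lost without sham replicate 4 of 4 h (-0.12, adjusted p = 0.19). The 372 tested probes of a like level had a median difference of -0.18 there, or -0.07 without that array. Under quantile normalization Tubb5 differed by -0.02 (adjusted p = 0.82).

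The 6 group means of Tubb5 spanned 0.19, or 1.14-fold, the narrowest range of the 10 tubulin genes, and 0.16 without sham replicate 4 of 4 h. Of the 24699 tested probes well above background on all arrays, whatever their level, 97.5% had a wider range. The intensity of Tubb5 spanned 1.84-fold over the 24 arrays, against 2.64-fold for the 75th percentile. Under spike-in scaling Tubb5 differed by 0.59 between 0 and 24 h in sham (adjusted p = 8.7e-04), beside a median of 0.75 over all tested probes. The group means of B2m, a subunit of the class I histocompatibility complex, spanned 0.40, or 1.32-fold. Of the same 24699 probes 77.9% had a wider range than B2m. B2m fell by 0.40 from 0 to 24 h in nsPEF (adjusted p = 0.019) and was not called in any other comparison. Its nsPEF arrays read 6.17, 6.03, 6.08 and 6.06 at 0 h and 6.01, 5.65, 5.58 and 5.50 at 24 h, so the groups did not overlap. The mean of the log2 values of both genes differed from its sham value at 0 h by -0.01 in nsPEF of the same time. It differed by -0.16 in sham of 4 h, or -0.06 without replicate 4, by -0.11 in nsPEF of 4 h, and by -0.15 and -0.20 in those of 24 h. Of 10 commonly used reference genes, 3 rose (Ywhaz by 0.56, Hprt by 0.45 and Tbp by 0.41) and 2 fell (differences of -0.34 for Sdha and -0.44 for Ppia) from 0 to 4 h in sham, with adjusted p between 4.7e-09 and 0.024. Over all tested probes 29.4% were called higher and 29.7% lower there, so these counts do not set the reference genes apart.

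**Figure D3:**
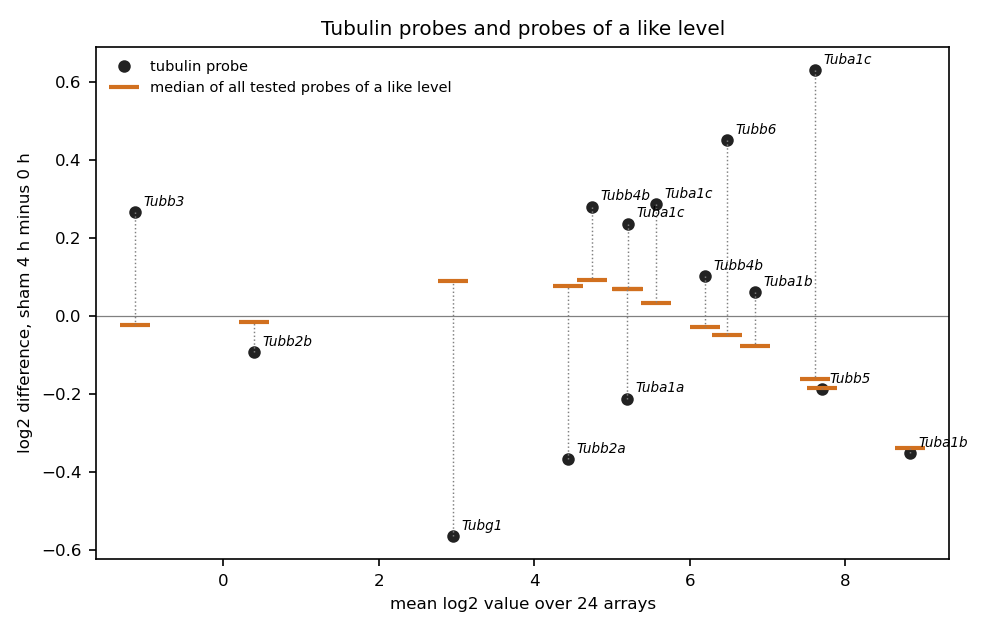
The difference between 4 and 0 h in sham for each of the 14 tubulin probes (points) and the median difference of all tested probes whose mean level lies within 0.5 on the log2 scale (short bars). The x axis gives the mean log2 value over 24 arrays and the y axis the log2 difference. The first Tuba1b probe and Tubb5 lie on the median of probes of a like level, at -0.35 beside -0.34 and at -0.19 beside -0.18, and the other 12 probes lie further from it.

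Compared with that same background of like level, the other sham changes at 4 h stood further out. Tuba1c by its first probe gave 0.63 beside a median of -0.16 over 389 probes, and Tubb6 gave 0.45 beside -0.05 over 563 probes. For Tubg1 the values were -0.56 and 0.09 over 2431 probes, and for Tubb2a -0.37 and 0.08 over 1457 probes. These are descriptions of the same arrays and carry no test.

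The other time comparisons are given as counts beside the share of all tested probes called. In nsPEF from 0 to 4 h, 4 genes rose (Tuba1c, Tubb3, Tubb4b and Tubb6) and 4 fell (Tuba1a, Tubb2a, Tubb2b and Tubg1), where 33.5% of all tested probes were called higher and 27.8% lower. From 4 to 24 h in sham 1 gene rose (Tubg1) and 7 fell (Tuba1a, Tuba1c, Tubb2a, Tubb2b, Tubb3, Tubb4b and Tubb6), beside 27.8% called higher and 29.9% lower. For nsPEF over the same interval 1 gene rose (Tubg1) and 5 fell (Tuba1c, Tubb2a, Tubb2b, Tubb3 and Tubb6), beside 27.5% and 29%. Between 0 and 24 h in sham 0 rose and 5 fell (Tuba1a, Tubb2a, Tubb2b, Tubb4b and Tubb6), beside 16.9% and 19.7%. In nsPEF 2 rose (Tubb4b and Tubg1), although the second Tubb4b probe was not called, and 3 fell (Tuba1a, Tubb2a and Tubb2b), beside 23.9% and 18.3%. That last count of 5 became 3 without nsPEF replicate 1, 3 or 4 of 0 h or without the arrays of replicate number 3. Comparisons that share a time point share its arrays, so these counts are not independent of each other.

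All directions at 24 h are relative to the array's 75th percentile. Scaling to the spiked-in control RNA instead moved the median of all tested probes by 0.75 between 0 and 24 h in sham and by 0.85 between 4 and 24 h, and on that scale no tubulin gene was lower in sham at 24 h than at 0 h. Relative to the moved median, Tubb2a differed by -0.61, Tubb2b by -0.43 and Tuba1a by -0.39 between 0 and 24 h in sham. Both scalings shift all probes of an array alike, so these values repeat the main scale by construction and are no separate support. At 4 h against 0 h in sham the directions of Tuba1c, Tubb6, Tubg1 and Tubb2a were the same under both scalings.

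**Figure D4:**
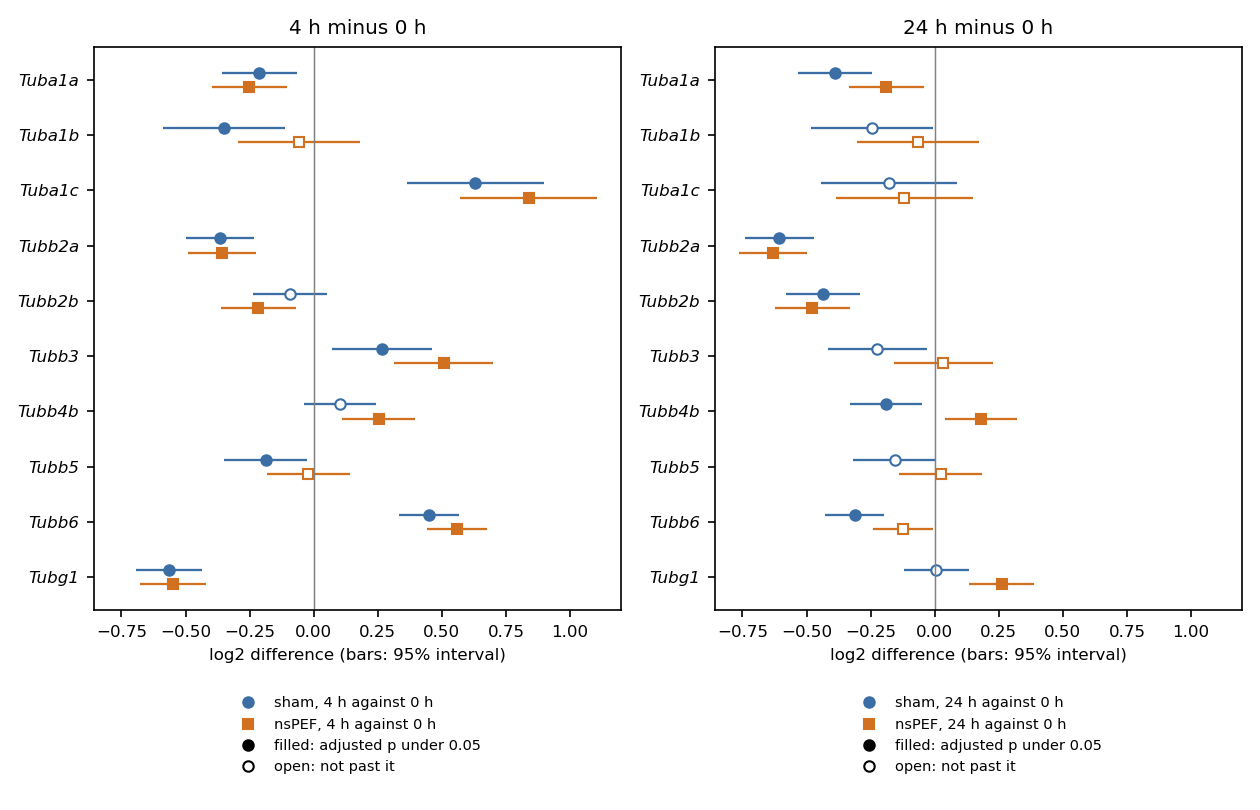
Changes with time by gene, 4 h minus 0 h on the left and 24 h minus 0 h on the right, for sham (circles) and nsPEF (squares). The x axis gives the log2 difference on the scale set by the 75th percentile, bars are 95% intervals, and filled marks have an adjusted p under 0.05. On this scale Tubb2a lies 0.61 lower in sham at 24 h, and Tuba1c rises by 0.63 in sham and 0.84 in nsPEF at 4 h; scaled to spiked-in RNA the sham differences at 24 h all lie above 0, from 0.14 for Tubb2a (adjusted p = 0.44) to 0.75 for Tubg1.

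Few tubulin genes were called between nsPEF and sham. Few of all tested probes were called there either, so these counts do not set the tubulin genes apart. Against sham, 0 of 10 genes were called at 0 h (limma, 0 also at an unadjusted p under 0.05), where 0.127% of all tested probes were called. At 4 h 0 genes were called, and 1, Tubb3, at an unadjusted p under 0.05, beside 3.31% of all probes. At 24 h Tubb3 was called higher, and 5 genes had an unadjusted p under 0.05, beside 4.82% of all probes, or 4.94% of those above background throughout. The 10 genes had a median difference of -0.06, 0.02 and 0.12 at the successive times, beside -0.03, 0.0049 and 0.02 over all tested probes. Without sham replicate 4 the median at 4 h was -0.04. The difference at 4 h was 0.14 with that array and -0.04 without it for Tuba1c, and 0.22 and 0.06 for Tuba1b. The arrays of both treatments also differed in quality measures. On the 12 sham arrays 57.5% to 62.1% of probes were well above background, against 51.2% to 57.2% on the 12 nsPEF arrays. At 4 and 24 h the sham arrays had 96 to 192 marked spots and the nsPEF arrays 257 to 508. The part of these differences in the results was not tested.

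Tubb3 at 24 h read -1.43, -1.52, -1.70 and -1.32 in sham and -1.40, -0.91, -1.15 and -1.14 in nsPEF, so the groups overlapped by 1 array. It was higher in nsPEF by 0.34 (SE 0.09, 95% interval 0.15 to 0.53, adjusted p = 0.040) or 1.27-fold. With the replicate number as a block the adjusted p was 0.055, and under quantile normalization the difference was 0.28 (adjusted p = 0.056). At 4 h the arrays read -0.99, -0.99, -0.91 and -1.11 in sham and -0.51, -0.75, -0.70 and -0.75 in nsPEF. These groups did not overlap, and the difference of 0.32 (95% interval 0.13 to 0.52) had an adjusted p of 0.057. At 0 h it was 0.08 (95% interval -0.11 to 0.28, adjusted p = 0.85). Averaged over the 3 times Tubb3 was higher by 0.25 (SE 0.05, adjusted p = 0.010), the only 1 of the 10 genes called there, beside 8.84% of all probes.

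The calls of Tubb3 depended on single arrays. Leaving out 1 of sham replicates 1, 2 or 3 or nsPEF replicates 2, 3 or 4 of 24 h took the adjusted p at 24 h to between 0.066 and 0.14, with differences of 0.26 to 0.36. Over the 3 times the call was lost without the arrays of replicate number 2 (0.22, adjusted p = 0.11) or 3 (0.26, adjusted p = 0.0501). The single Tubb3 probe lies in row 27 of the array's 384 rows of spots. Among the 467 tested probes of a like level in the first 48 rows, the median difference between nsPEF and sham was 0.12 at 4 h and 0.06 at 24 h, against -0.01 and -0.02 for the 2993 probes of a like level in the other rows. With each array's values centred along the rows of spots over all probes, Tubb3 differed by 0.15 at 24 h (adjusted p = 0.18) and by 0.02 over the 3 times (adjusted p = 0.77). That centring lowered all probes: the median of all tested probes was then -0.21 at 24 h and -0.23 over the 3 times. With the centring taken over bright probes only, Tubb3 differed by 0.31 (adjusted p = 0.037) and 0.22 (adjusted p = 0.012), beside medians of 0.0043 and -0.01. The part of the spot's place in the result was not tested beyond these values.

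**Figure D5:**
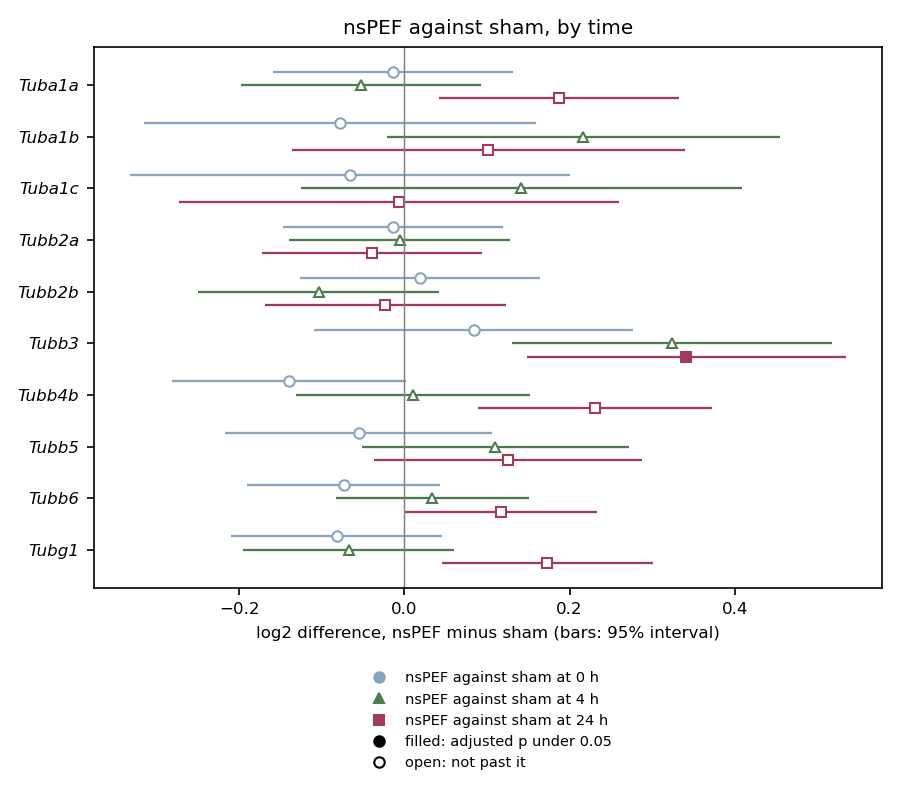
The difference between nsPEF and sham for each tubulin gene at 0 h (circles), 4 h (triangles) and 24 h (squares). The x axis gives the log2 difference, bars are 95% intervals, and filled marks have an adjusted p under 0.05. Only Tubb3 at 24 h, at 0.34, is past the threshold, and at that time 7 of 10 genes lie to the right of 0. The median of all tested probes was 0.02 there, and medians of probes of a like level ran from -0.04 for Tubb2b to 0.14 for Tuba1b.

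For the other genes the 95% intervals cover only the spread between arrays under the main scaling. Over the 45 alternatives run for 24 h, Tubb2a ran from -0.30 to -0.015 and Tubb4b from 0.025 to 0.29. Some of these values lie outside the intervals given next. At 24 h the differences ran from -0.04 for Tubb2a (95% interval -0.17 to 0.09) to 0.23 for Tubb4b (95% interval 0.09 to 0.37, adjusted p = 0.054, or 0.044 with the replicate number as a block). Tuba1a gave 0.19 (adjusted p = 0.12), with nsPEF arrays at 5.05, 5.27, 5.12 and 5.24, all above the 4 sham arrays, and Tubg1 gave 0.17 (adjusted p = 0.10). Tubb5 gave -0.06, 0.11 and 0.13 at 0, 4 and 24 h (95% intervals -0.22 to 0.11, -0.05 to 0.27 and -0.04 to 0.29). The value at 4 h was 0.04 without sham replicate 4 (adjusted p = 0.79). Without nsPEF replicate 1 of 24 h, 4 genes were called at 24 h: Tubb3 together with Tubb4b at 0.29 (adjusted p = 0.012), Tubg1 at 0.22 (adjusted p = 0.024) and Tuba1a at 0.23 (adjusted p = 0.049). The count at this time therefore depends on single arrays, from 0 to 4.

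Whether the effect of nsPEF changed with time was tested by the interaction of the 2 factors, and 0 of 10 genes were called, beside 0.377% of all probes. Tubb4b and Tubg1 had an unadjusted p under 0.05 in that test, at 0.0037 (adjusted p = 0.12) and 0.013 (adjusted p = 0.19).

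Around the tubulin genes, the families that fold, seed, bind and modify tubulin were followed in the same comparison of 4 h with 0 h in sham, where 29.4% of all tested probes were called higher and 29.7% lower. Of 7 other tubulin genes tested, 3 rose from 0 to 4 h in sham (Tuba4a by 1.07, Tubg2 by 0.65 and Tuba3b by 0.31) and 2 fell (Tube1 and Tubd1, both centriole tubulins, with differences of -0.94 and -1.26). Of 20 genes for the folding of tubulin, 11 rose and 4 fell, with a list median of 0.21. Among them Pfdn4, a prefoldin subunit, rose by 1.02 and the chaperonin subunits Cct7 and Cct6a by 0.49 and 0.47, whereas Arl2, a small GTPase of the dimer assembly pathway, the assembly cofactor Tbcd and the prefoldin subunit Pfdn5 differed by -1.36, -0.52 and -0.25. Of 19 genes of the gamma-tubulin ring and the augmin complex, which start microtubules with gamma-tubulin, 4 rose and 8 fell. The ring components Mzt1 and Tubgcp5 rose by 0.64 and 0.41 and the augmin subunit Haus3 by 0.25, while the augmin subunits Haus4 and Haus5 and the centrosome protein Cdk5rap2 differed by -1.83, -1.26 and -1.05.

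Of 29 genes for microtubule-associated proteins, 9 rose and 15 fell in the same comparison. Map7, Camsap1 and Camsap2, which bind along microtubules or at their minus ends, rose by 1.21, 1.18 and 0.83. The plus-end protein Mapre3, tau (Mapt) and Map2 fell, with differences of -1.87, -1.53 and -1.28. Of 22 genes for the modification of tubulin, 4 rose and 11 fell, among them the polyglutamylases Ttll11, Ttll4 and Ttll7 with rises of 2.47, 1.46 and 0.51, and Ttll1 together with the deglutamylases Agbl4 and Agbl5 with differences of -1.11, -1.31 and -1.05. Of 7 severing genes, 1 rose (Katna1, a katanin subunit, by 0.32) and 5 fell, with differences of -1.46 for Katnal2 and -1.40 for Fign. Of 9 genes of tubulin mRNA autoregulation, 4 rose and 4 fell: the deadenylase subunits Cnot7, Cnot11 and Cnot10 rose by 0.65, 0.50 and 0.29, while Ttc5, which recognises the nascent tubulin chain, its partner Scaper and Cnot6l differed by -0.68, -2.37 and -0.69. The median differences were 0.31 for the other tubulins, -0.11 for the ring and augmin list, -0.39 for the microtubule-associated proteins, -0.29 for the modification list, -0.53 for the severing list and -0.07 for the autoregulation list, beside -0.01 over all tested probes. All genes named here had an adjusted p under the threshold, and the largest was 0.045, for Tuba3b. Their precision differed widely. The SE was 0.46 for Map2, 0.35 for Fign, 0.32 for Agbl4, 0.28 for Ttll11 and 0.27 for Katnal2. It was 0.25 for Map7 and 0.24 for Tubg2, against 0.05 for Mapre3 and 0.07 for Mapt. The sizes with a wide SE are imprecise, and the signal levels of these probes are not given here.

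In the comparison of nsPEF with sham, genes of these lists were called at 4 and at 24 h, where 3.31% and 4.82% of all tested probes were called. At 4 h Mapt was higher by 0.38 (adjusted p = 0.0090), and 6 named genes were lower (adjusted p from 0.018 to 0.033), with differences of -0.40 for Map1a, -0.30 for Ttll12, -0.25 for Tube1, -0.24 for Pfdn1, -0.20 for Map4 and -0.17 for Fignl1. At 24 h Tuba3b, a testis alpha-tubulin, was higher by 0.65 (adjusted p = 0.0085), Tuba4a by 0.25 (adjusted p = 0.048) and Tpgs2, a subunit of a polyglutamylase complex, by 0.24 (adjusted p = 0.030), and Cnot8 fell by 0.18 (adjusted p = 0.048). In the gamma-tubulin ring and augmin list 0 of 19 genes were called at 0, 4 or 24 h, and 2 of 19 were called lower over the 3 times, beside 8.84% of all tested probes.

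The 5 genes whose centred profile over the 6 group means lay closest to that of Tuba1c, among 16842 gene symbols, were 3010003L21Rik, Zscan10, Tpm4, Dtnbp1 and Pde6h. Their root mean square difference from Tuba1c was 0.036, 0.036, 0.041, 0.047 and 0.049 on the log2 scale. Tpm4 codes for a tropomyosin, a protein of actin filaments.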

How the data were processed

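Total RNA of 24 cultures was labelled with Cy3 and hybridised to one-colour Agilent mouse arrays. Per the file headers, the deposited intensity values are processed signals, which the authors obtained with Agilent Feature Extraction 12.0 and which are already background-corrected. The authors' deposited series table holds log2 values, used as an alternative only, and 0 columns were left without a sample. Spots marked as non-uniform or as outliers were left out (96 to 508 spots per array), spots of a probe were averaged, and the log2 of each array's 75th percentile (202 to 533) was subtracted. Between 51.2% and 62.1% of probes per array were well above background, and the number of arrays limits the precision. A probe was tested if well above background on at least 2 of 4 arrays of a group (37687 of 56605 probes). Probes were named by RefSeq accession (34566 with 1 symbol). The fit in limma 3.58.1 (R 4.3.3) had 6 group means over 24 arrays, with Benjamini-Hochberg adjustment over all tested probes, and was tested on simulated data. Genes were represented by the probe with the highest mean.

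The members and the lists around them were chosen with earlier results of these data known. Named were all members with all probes. From each list the 3 largest called rises and falls in sham from 0 to 4 h were named, and up to 3 called genes per direction for nsPEF against sham at 4 and 24 h. A result that this rule would name is not reported here. Tubb5, B2m and the 5 closest profiles to the member with the widest range were named too. Per the methods, the tests of a biological replicate shared 1 suspension of cells, and the labels number the replicates alike in all groups. Deviations of same-numbered arrays correlated from -0.22 to 0.29. The design had no block, and the block was an alternative. Alternatives covered scaling, background, filters, weights, spot rows, replicate block, single probes and leaving out each array. The percentile over spots, the probe with the lowest mean and the centring over bright probes were chosen after seeing the data. RefSeq tables of GRCm38.p6 gave names and promoters. Tubb2b, Tubb6 and Tubg1 have no promoter shown.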

Additional observations from a re-analysis of the deposited data

Results flagged for a closer look

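In 84 groups of 4 arrays tested (14 probes in 6 groups), the lowest or highest array lay far from the other 3 in 3 cases, and chance gives such a gap in about 1 of 20 groups. All 3 were the same array, sham replicate 4 of 4 h: the first Tuba1b probe read 8.16 against 8.76 to 8.83 on the others, the first Tuba1c probe 7.52 against 8.19 to 8.32, and Tubb5 7.38 against 7.65 to 7.67. This array also had the highest 75th percentile of all 24, at 533 intensity units. Values without it are given beside several of the results that it moved.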

How the results depend on the processing

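Time and slide, and treatment and array row, cannot be told apart. Of the changes in sham from 0 to 4 h, Tuba1c, Tubb6, Tubg1 and Tubb2a stayed called in the same direction under all 44 alternatives run, and Tubb5 in 25 of 44. Tubb3 at 24 h was called in 28 of 45, and over the 3 times in 40 of 44.

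With 1 array or 1 replicate number left out, the count of tubulin genes called ran from 0 to 0 for nsPEF against sham at 0 h, 0 to 1 at 4 h, 0 to 4 at 24 h, 0 to 1 over the 3 times and 0 to 1 for the dependence on time. In sham it ran from 5 to 8 for 4 h against 0 h, 7 to 8 for 24 h against 4 h and 4 to 6 for 24 h against 0 h, and in nsPEF from 7 to 8, 6 to 6 and 3 to 6.

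With the replicate block the counts were unchanged, at 8 for sham 4 h against 0 h and 1 for nsPEF against sham at 24 h, where Tubb4b (adjusted p = 0.044) took the place of Tubb3 (adjusted p = 0.055). It changed no other call of a tubulin gene for nsPEF against sham or between times in sham. Calls of single genes between times in nsPEF were not compared.

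For nsPEF against sham at 4 h the main fit called 1248 of 37687 probes. Under spike-in scaling, the percentile over probes detected on all arrays and normexp background 1 tubulin gene was called, beside 1245, 1095 and 1401 probes. The count was also 1 with no filter on dim probes (10286 of 56605 probes) and with 1 probe per gene symbol (1053 of 16843). With values centred by spot row it was 7, beside 19620 of 37687 probes. At 24 h the main fit called 1816 probes. The count of tubulin genes was 0 under spike-in scaling (199 probes), normexp background (579), marked spots kept (2345) and the deposited series table (2371). In the fit of the 8 arrays of that time it was 0 too (29 probes). It was 2 with the percentile over detected probes (1863), no filter (8900 of 56605) and 1 probe per symbol (1373 of 16843). Analysis of variance without moderation also gave 2 (1958 probes). Both spot-row centrings gave 2 as well, beside 12321 probes with that over all probes and 1662 with that over bright probes. With array weights the count was 5, beside 7048 probes. At 0 h it was 2 with spot-row centring, beside 2254 probes, against 48 probes in the main fit. Over the 3 times it was 0 under spike-in scaling (800 probes) and 8 with spot-row centring (22638 probes), against 3332 probes in the main fit. For the dependence on time it was 2 with array weights. The main fit called 142 probes in the test of that dependence, and the number with array weights is not given. For 1 contrast of that test, the nsPEF effect at 24 h minus that at 0 h, these weights called 3732 probes, against 133 in the main fit. In sham, 5 were called at 4 h against 0 h under spike-in scaling (17577 probes, against 22276 in the main fit). At 24 h against 0 h, 8 were called under spike-in scaling (28127 probes) and array weights (18086), against 13786 probes in the main fit. In nsPEF, 5 were called at 4 h against 0 h under spike-in scaling (19323 probes, against 23099 in the main fit). At 24 h against 0 h, 3 were called with no filter (14918 of 56605 probes) and with spot-row centring (14490), against 15920 in the main fit. Counts that moved by a smaller factor are not listed here. Among these, Tuba1b and Tubb5 lost their calls in sham at 4 h against 0 h under quantile normalization. Under normexp background Tuba1a, Tubb3 and Tubb5 lost theirs there, and Tubb4b was called higher.

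Some directions turned with the setting. Under spike-in scaling, sham differences between 4 and 24 h were 0.66 for Tuba1a, 0.027 for Tuba1c, 0.60 for Tubb2a, 0.49 for Tubb2b, 0.35 for Tubb3, 0.54 for Tubb4b and 0.073 for Tubb6. Those between 0 and 24 h were 0.36 for Tuba1a, 0.50 for Tuba1b, 0.57 for Tuba1c, 0.14 for Tubb2a, 0.31 for Tubb2b, 0.52 for Tubb3, 0.56 for Tubb4b, 0.59 for Tubb5 and 0.43 for Tubb6, beside a median of all tested probes of 0.75. With values centred by spot row, nsPEF minus sham at 4 h was -0.31 for Tubb4b, -0.21 for Tubb5 and -0.28 for Tubb6, and over the 3 times -0.30 for Tuba1a, -0.23 for Tuba1c, -0.16 for Tubb4b, -0.14 for Tubb5, -0.17 for Tubb6 and -0.28 for Tubg1. That centring also put the median of all tested probes at -0.33 at 4 h, -0.21 at 24 h and -0.23 over the 3 times. For Tuba1a in sham, 24 h minus 4 h was 0.0014 with that centring and 0.085 under quantile normalization. By its probe with the lowest mean, Tuba1b gave 0.061 for 4 h minus 0 h and -0.22 for 24 h minus 4 h in sham. The causes were not tested.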
